A study of Mus musculus with 8 samples.

Results

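The acute-phase proteins that adipose tissue can make were followed here through 7 genes, Hp, Saa3, Lcn2, Orm1, Serpina3n, Cp and Steap4, in brown adipose tissue (BAT) of wild-type (WT) and db/db mice. They were found by mapping the Ensembl identifiers of the raw count table to mouse symbols, and all 7 of the listed genes were among the 31053 genes of that table. The genes were selected on their levels in these same libraries, so the WT and db/db values below are a description and carry no test. Acute-phase proteins are plasma proteins whose production changes in inflammation. The liver makes most of them, under interleukin-6, interleukin-1 and glucocorticoids, through STAT3, NF-kB and C/EBP transcription factors, and adipocytes and macrophages also produce several. Within the group, haptoglobin (Hp) binds free hemoglobin, ceruloplasmin (Cp) is a copper-carrying ferroxidase, lipocalin 2 (Lcn2) binds iron-loaded bacterial siderophores and orosomucoid 1 (Orm1) is a lipocalin that carries small lipophilic molecules. Serum amyloid A3 (Saa3) is the serum amyloid made mainly outside the liver in mice, Serpina3n is a secreted inhibitor of serine proteases, and Steap4 is a membrane metalloreductase that reduces iron and copper and is induced by inflammatory cytokines in fat.

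BAT, the heat-producing fat depot, was taken from 8-week-old male mice, with 4 WT and 4 db/db animals and 1 library from each. The WT mice were C57BL6/J, and the study names Charles River as their source in one place and Jackson in another. The study's methods name the db/db mice as B6.BKS(D)-Leprdb/J from Jackson, and its resource list gives only a Jackson stock number. These mice carry a leptin receptor mutation in the whole body, overeat and become obese and hyperglycemic. The labels give C57BL6/J as the strain of both genotypes. If the WT mice came from another vendor, or the db/db mice had another strain background, that difference and genotype cannot be told apart. The labels also call the cell type a stromal vascular fraction, while the study describes RNA of BAT. Stromal fractions lack mature adipocytes, yet the uncoupling protein gene Ucp1 lay between 1056 and 2754 CPM (counts scaled to the size of the library) and the lipid droplet gene Cidea between 1254 and 4787 CPM over the 8 libraries, so the libraries are described as BAT.

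The libraries held 2374079 to 2615009 counts in WT and 2382722 to 3240074 in db/db. CPM here are taken over a library size scaled by edgeR's TMM factor, and 3 counts, taken as the limit of detection, corresponded to 0.902 to 1.33 CPM. A filter on low counts kept 9264 genes of the series. Of these, 27.7% differed between the genotypes at an adjusted p under 0.05, with 15.8% higher and 11.9% lower in db/db.

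Stretches upstream of 3 of the 7 genes are given as background, because several members are known as targets of shared inflammatory factors. They are RefSeq promoter windows on GRCm38.p6, written 5′ to 3′ on the strand of the gene and ended before the first annotated exon. Capitals mark matches to any of 4 motifs, searched on both strands of the whole 300-base window: a C/EBP motif (TTGCNNAA), a STAT motif (TTCCNGGAA), a single arm of the paired glucocorticoid receptor element (AGAACA), not the whole element, and the NF-kB consensus. The spellings were settled after the sequences had been seen.
Saa3, chr7:46715701-46715926, minus strand: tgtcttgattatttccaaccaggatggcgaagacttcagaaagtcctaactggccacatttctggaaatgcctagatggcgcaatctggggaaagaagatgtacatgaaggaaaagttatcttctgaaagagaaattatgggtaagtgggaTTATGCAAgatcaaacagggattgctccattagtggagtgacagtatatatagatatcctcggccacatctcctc
Serpina3n, chr12:104406458-104406707, plus strand: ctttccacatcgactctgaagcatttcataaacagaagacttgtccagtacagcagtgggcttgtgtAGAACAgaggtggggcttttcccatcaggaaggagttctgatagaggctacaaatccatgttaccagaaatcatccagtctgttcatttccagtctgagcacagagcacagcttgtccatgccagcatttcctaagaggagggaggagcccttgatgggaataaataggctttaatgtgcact
Steap4, chr5:7960222-7960456, plus strand: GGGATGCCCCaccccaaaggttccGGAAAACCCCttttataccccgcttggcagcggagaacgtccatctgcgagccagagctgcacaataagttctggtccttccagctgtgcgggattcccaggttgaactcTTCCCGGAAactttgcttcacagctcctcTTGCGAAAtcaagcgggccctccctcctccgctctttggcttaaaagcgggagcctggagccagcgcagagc
The Saa3 capitals are a C/EBP match on the opposite strand, beginning 99 bases before the start site. The Serpina3n capitals are a match to that single arm of the glucocorticoid receptor element. The Steap4 window held matches to NF-kB at 2 places, to STAT and to C/EBP, in that order toward the start site, and its NF-kB match at the far end reads as a match on both strands. C/EBP letters also stood in the windows of Lcn2 and of the later of the 2 Cp start sites, and the letters of the glucocorticoid receptor arm stood in that of the earlier Cp start site. Among 32851 windows of this length, 10.8% held the C/EBP letters, 8.46% the NF-kB consensus, 1.15% the STAT letters and 19% the letters of the glucocorticoid receptor arm. A match describes letters and is not a binding site. No window was at hand for Hp and Orm1.

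Every one of the 7 genes had a higher mean in db/db BAT than in WT BAT. Of the 7 genes, 6 passed the filter and Lcn2 did not. Saa3 passed it through db/db alone, with at most 7 counts in a WT mouse and at least 11 in a db/db mouse. Of the 6 genes that passed the filter, 5 passed an adjusted p of 0.05 as higher in db/db and none as lower. Cp was the one that did not pass, set beside 15.8% of all tested genes called higher. With 1 mouse left out, 4 were called without WT 4 and 6 without WT 3 or db/db 3, while 4 were called with at least 10 counts in every sample and 7 with every counted gene in the fit. These calls are a description, as the genes were chosen on the same values. The values of 4 of the 7 did not overlap between the genotypes, with every db/db mouse above every WT mouse for Hp, Saa3, Lcn2 and Serpina3n, which is 3 of the 6 tested genes and Lcn2, while 15.3% of all tested genes had that pattern. The median log2 fold change of the 6 genes in the fit was 1.68, and that of all tested genes was 0.0066. The choice of these genes used the same libraries, so nothing is read from these shares. In bulk RNA, more cells of a type that makes a transcript cannot be told apart from more transcript in each cell.

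**Figure D1:**
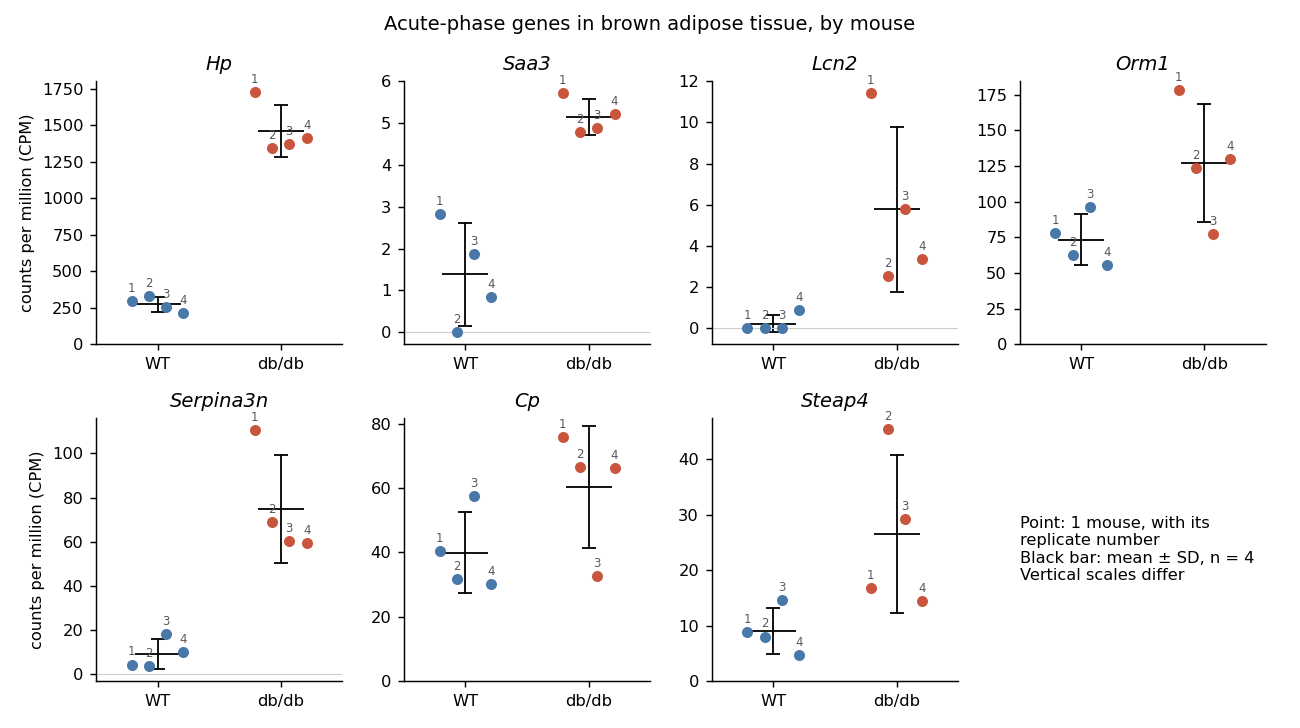
Level of each of the 7 genes in CPM (vertical axis, with its own scale in each panel) in 4 WT and 4 db/db mice, with 1 point for each mouse, its replicate number, and a black bar for the mean ± SD. All db/db points of Hp, Saa3, Lcn2 and Serpina3n lie above all WT points, while Orm1, Cp and Steap4 overlap.

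Hp encodes the hemoglobin scavenger and lies on the minus strand at chr8:109575128-109579172 (ENSMUSG00000031722, mm10). Its level was 298, 327, 254 and 212 CPM in WT mice 1 to 4. In db/db mice 1 to 4 it was 1726, 1341, 1369.7 and 1410.2 CPM. The lowest db/db mouse thus stood far above the highest WT mouse, and the values spread little within each genotype. The means were 273 ± 50.4 CPM (SD, n = 4) in WT and 1462 ± 179 CPM (SD, n = 4) in db/db, a 5.36-fold difference with a log2 fold change of 2.42 (SE 0.16).

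Cp encodes the ferroxidase that circulates with copper and lies on the plus strand at chr3:19957054-20009145. It overlaps Hps3 on the opposite strand, and whether the counting used strand is not given in the sources used here, so its counts are uncertain. WT mice 1 to 4 had 40.5, 31.7, 57.5 and 30.1 CPM. The db/db mice had 76.1, 66.5, 32.8 and 66.2 CPM. Of the db/db mice, 1, 2 and 4 lay above all WT mice, whereas db/db 3 fell among the lower WT values. The log2 fold change was 0.60 (SE 0.24), from 39.9 ± 12.6 CPM to 60.4 ± 18.97 CPM (SD, n = 4 each), the smallest of the 7. Without WT 3 the log2 fold change was 0.81, and without db/db 3 it was 0.79.

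Steap4 supplies the reductase step for iron and copper at the membrane and lies on the plus strand at chr5:7960457-7982213. The WT mice had 8.90, 8.02, 14.7 and 4.67 CPM. The db/db mice had 16.8, 45.5, 29.3 and 14.5 CPM. The genotypes met at a single point, where db/db 4 stood just under WT 3, and the spread inside db/db was wide, with a coefficient of variation of 53.6%. Its mean was 9.06 ± 4.15 CPM in WT and 26.5 ± 14.2 CPM in db/db (SD, n = 4 each), and the log2 fold change was 1.53 (SE 0.37).

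Of the lipocalins, Orm1 lies on the plus strand at chr4:63344560-63348163 and had 78.1, 62.9, 96.2 and 55.6 CPM in WT. In db/db it had 178, 124, 77.1 and 130.2 CPM. As for Cp, db/db 3 was the mouse that fell inside the WT range, and the other db/db mice were above it. The means were 73.2 ± 17.97 and 127 ± 41.4 CPM (SD, n = 4 each), with a log2 fold change of 0.80 (SE 0.21).

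Lcn2, the siderophore-binding lipocalin, lies on the minus strand at chr2:32384633-32388252 and was close to the limit of detection in WT. WT mice 1, 2 and 3 held no count and WT 4 held 2 counts. The db/db mice held 38, 8, 13 and 9 counts, which is 11.4, 2.55, 5.76 and 3.35 CPM. All db/db mice were above the limit and all WT mice below it, and db/db 1 carried more counts than the other db/db mice together. The ratio of the summed counts, 68 in db/db against 2 in WT after scaling by library size, was 29.4, with an exact 95% counting interval of 7.82 to 247. Without db/db 1 the ratio was 18.3, with an interval of 4.64 to 158. A fit to every gene with a count gave a log2 fold change of 4.50 (SE 0.81), a value that depends on the small count added to zeros.

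Saa3 encodes the extrahepatic serum amyloid A and lies on the minus strand at chr7:46711998-46715700. It was also read by few counts, 7, 0, 5 and 2 in WT and 19, 15, 11 and 14 in db/db. In CPM the WT mice had 2.83, 0, 1.88 and 0.849, and the db/db mice had 5.72, 4.77, 4.88 and 5.21. The db/db mice lay within a narrow band, and WT 1 and WT 3 were the WT mice above the limit of detection. The log2 fold change was 1.83 (SE 0.54), from 1.39 ± 1.23 to 5.14 ± 0.425 CPM (SD, n = 4 each). With 1 mouse left out it ran from 1.43 to 2.38, and without WT 4 it was 1.66.

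Serpina3n, the protease inhibitor, lies on the plus strand at chr12:104406729-104414329. The WT mice had 4.45, 3.80, 18.4 and 10.2 CPM. The db/db mice had 111, 68.7, 60.3 and 59.5 CPM. Every db/db mouse stood well above WT 3, the highest WT mouse, and db/db 1 stood above the other db/db mice. The means were 9.21 ± 6.77 and 74.8 ± 24.3 CPM (SD, n = 4 each), an 8.12-fold difference with a log2 fold change of 3.0 (SE 0.34).

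Several members belong to gene families whose copies resemble each other, and reads shared between near-identical copies can be split or lost in counting, so the family values are uncertain. They are shares of counts, not adjusted for transcript length. Of the Saa family, Saa3 held 14 of 15 counts in WT and 59 of 61 in db/db, and the liver forms Saa1 and Saa2 together held the remaining counts. Of the Orm family, Orm1 held 87.1% of 837 counts in WT and 92.4% of 1629 in db/db. Orm3 held 10.2 ± 0.185 CPM in WT and 7.17 ± 2.28 CPM in db/db, with a log2 fold change of -0.49 (SE 0.30, adjusted p = 0.243). The groups did not overlap, with 10.1 to 10.5 CPM in WT above 3.99 to 9.02 CPM in db/db. Its counts were 101 in WT and 85 in db/db while those of Orm1 were 729 and 1506, and its share was 12.1% in WT and 5.22% in db/db. Orm2 held 0, 1, 3 and 3 counts in WT and 27, 4, 2 and 5 in db/db, with db/db 1 again highest. Of the Serpina3 cluster, Serpina3n held 50.3% of 185 WT counts and 62.0% of 1419 db/db counts, and its neighbour Serpina3c held 45.9% and 36.9%.

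**Figure D2:**
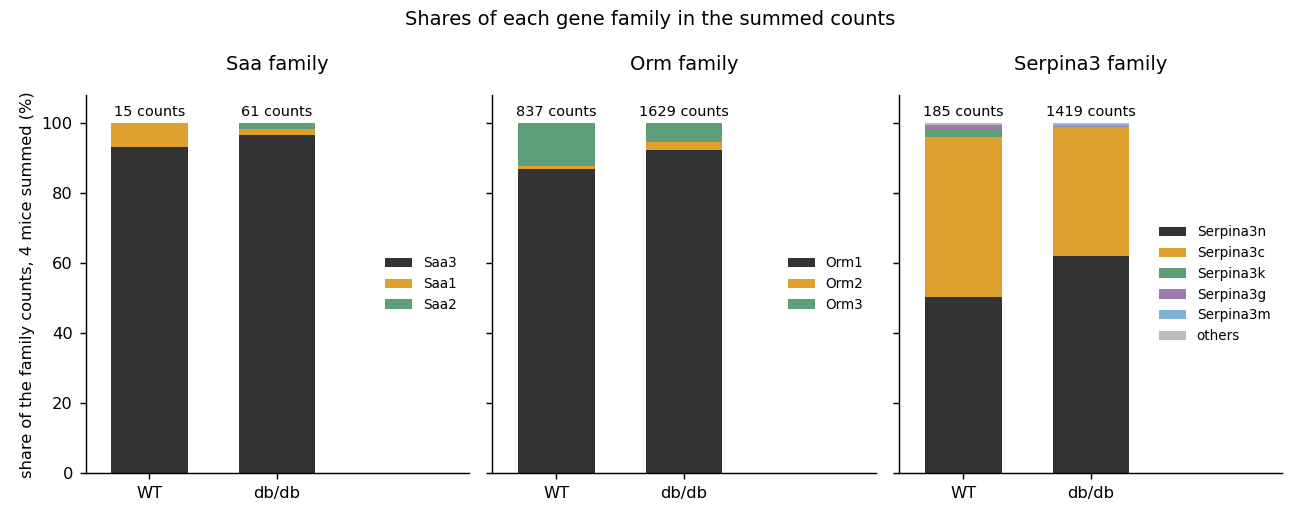
Share of each copy in the summed counts of its family (vertical axis, %) over 4 WT and 4 db/db mice, for the Saa, Orm and Serpina3 families, with the summed counts above each bar. Saa3 and Orm1 hold most counts of their families in both genotypes, and Serpina3n and Serpina3c hold nearly all counts of theirs.

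Serpina3c rose with Serpina3n, from 8.39 ± 6.02 to 44.5 ± 16.7 CPM (SD, n = 4 each), with a log2 fold change of 2.39 (SE 0.39, adjusted p = 0.000188) and no overlap between the genotypes. Of 19 relatives of the members in the table, 4 could be tested, and 3 of them rose while none fell. Besides Serpina3c these were Steap3, the related metalloreductase of the transferrin cycle, at 4.31 ± 1.81 and 10.4 ± 2.06 CPM (log2 fold change 1.28, SE 0.35, adjusted p = 0.0108), and Heph, the membrane ferroxidase related to Cp. Heph went from 4.39 ± 2.48 to 10.3 ± 1.57 CPM (log2 fold change 1.20, SE 0.38, adjusted p = 0.0229), and it too overlaps an opposite gene, Hsf3. For both genes all db/db mice lay above all WT mice, but Heph did not pass without WT 2, WT 4 or db/db 3 (adjusted p of 0.0628 to 0.0747).

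Within a genotype the 7 genes did not move as one. The mouse db/db 1 was the highest db/db mouse for 6 of the 7, all but Steap4, which was highest in db/db 2. Among the WT mice, WT 3 was highest for 4 genes and WT 4 lowest for 4. For each pair of genes, the distance of every mouse from its genotype mean in log2 CPM was correlated over the 8 libraries, and these 21 values describe libraries that share depth and tissue composition. Pearson's r ran from -0.62 to 0.96 with a median of 0.16, and 14 of the 21 were above 0. The highest was that of Orm1 and Cp, with r = 0.96 and Spearman's rho = 0.88, and r was 0.98 without db/db 1. Leaving out the 2 mice farthest from the median of Orm1 gave r = 0.96, and leaving out those farthest from the median of Cp gave r = 0.88. The lowest was that of Lcn2 and Steap4.

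**Figure D3:**
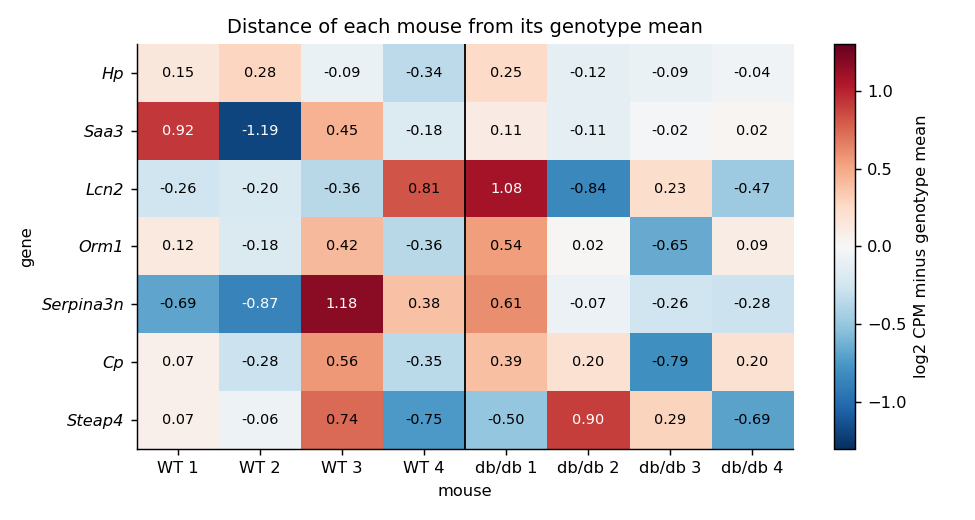
Distance of each mouse (columns) from the mean of its genotype for the 7 genes (rows), in log2 CPM, as numbers and colour, with red above and blue below the mean. Orm1 and Cp share their pattern, with db/db 3 lowest at -0.65 and -0.79, while Steap4 is highest in db/db 2 at 0.90.

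The same measure was taken against 4530 genes with a mean of at least 20 CPM, to name the 3 genes most like each member. Orm1 was most like Cp, Ints4 and Pltp, and Cp most like Orm1, Rasa3 and Ighm. Hp was most like Malat1, Smarca2 and Asap1, with r = 0.98 for Malat1. Steap4 was most like Hnmt, Zrsr1 and Rbpms, with r = 0.99 for Hnmt. Serpina3n was most like Eif3i, Glod4 and Tmed9, Saa3 like Ddx49, Eif5 and Ftsj3, and Lcn2 like the muscle genes Ldb3 and Tpm1 and like Rnf149. Such values are the highest among many over 8 libraries, and for Saa3 and Lcn2 they rest on few counts. The measure removes the genotype means, so likeness here does not mean a shared change between the genotypes.

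Outside the 7 genes, 27 other genes whose proteins rise in the acute phase were listed. No count of 7 of them was found in any library, among them the fibrinogen chains Fga, Fgb and Fgg, serum amyloid P (Apcs) and hepcidin (Hamp), and 10 more were below the filter. Of the 10 tested, 6 rose in db/db and 1 fell. The largest rises were those of Il1rn and Lbp. Il1rn encodes the interleukin-1 receptor antagonist and held 0, 1, 0 and 1 counts in WT and 62, 27, 24 and 43 in db/db, a ratio of 67.4 with an exact 95% counting interval of 18.3 to 561 (adjusted p = 2.25e-06 from the fit). Lbp, which carries bacterial lipopolysaccharide to its receptor, went from 1.21, 0.422, 3.38 and 3.82 CPM in WT to 80.9, 63.3, 57.2 and 43.2 CPM in db/db. This 27.7-fold rise of Lbp had a log2 fold change of 4.75 (SE 0.35, adjusted p = 3.39e-08), and the genotypes were far apart. Serping1, the inhibitor of complement C1, rose to 187 ± 63.4 CPM from 53.8 ± 3.40 CPM in WT (log2 fold change 1.80, SE 0.19, adjusted p = 2.35e-06), again with all db/db mice above WT and db/db 1 highest at 281 CPM. Against these rises, C3, the central complement component, which is named because it was the only one of the 10 tested genes to pass as lower, went from 230.3 ± 25.2 to 94.9 ± 32.9 CPM (log2 fold change -1.27, SE 0.19, adjusted p = 7.07e-05). Among the genes below the filter, Itih4, an inter-alpha-trypsin inhibitor chain, held 3, 8, 4 and 4 counts in WT and 0, 0, 0 and 1 in db/db.

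Of 8 genes whose proteins fall in the acute phase, 2 could be tested, and both passed the threshold as lower, though neither call held in every setting. Transferrin (Trf) went from 158 ± 113 to 71.7 ± 23.1 CPM (log2 fold change -1.14, SE 0.38, adjusted p = 0.0328) with overlapping genotypes, since WT 2 and WT 4 lay below db/db 1, and it overlaps another annotated gene. Retinol-binding protein 4 (Rbp4) went from 50.8 ± 7.95 to 33.5 ± 10.3 CPM (log2 fold change -0.58, SE 0.21, adjusted p = 0.0425), with db/db 2 above the lowest WT mouse. Trf did not pass under DESeq2 (adjusted p = 0.136), limma-voom (0.127) or the replicate block (0.0676), nor without WT 1, WT 3, db/db 2, db/db 3 or db/db 4, with adjusted p of 0.0702 to 0.173. Without WT 3 its log2 fold change was -0.66. Rbp4 did not pass under 3 other settings (0.0552 to 0.0643), nor without WT 2, WT 3, WT 4, db/db 3 or db/db 4 (0.0556 to 0.119). Albumin was below the filter, with 5 counts in all WT mice and 27 in all db/db mice. The other liver products of the list were below the filter or without a count.

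The ligands that drive the response in liver could not be compared at this depth. Of 10 cytokine genes, Il6, Il1a, Osm and Ifng held no count in any library and the other 6, Il1b and Tnf among them, were below the filter. Of the 10 receptor genes, 8 could be tested, and 3 rose while none fell. Tnfrsf1b, a receptor of tumor necrosis factor found mainly on immune cells, rose from 3.74 ± 2.97 to 13.5 ± 3.47 CPM (log2 fold change 1.83, SE 0.42, adjusted p = 0.00325). Osmr, the oncostatin M receptor, rose from 3.97 ± 1.89 to 9.35 ± 3.58 CPM (log2 fold change 1.25, SE 0.41, adjusted p = 0.0309), and Ifngr1, an interferon gamma receptor chain, had a log2 fold change of 0.49 (SE 0.15, adjusted p = 0.019). In all 3 the db/db mice lay above the WT mice. Osmr did not pass with the replicate block (adjusted p = 0.0646) or without WT 1, WT 3, WT 4, db/db 1 or db/db 2 (0.051 to 0.13), and Ifngr1 did not pass without WT 1, WT 3 or db/db 3 (0.056 to 0.0834). The interleukin-6 receptor Il6ra, by contrast, stood at 30.5 ± 2.29 and 35.1 ± 6.06 CPM (log2 fold change 0.21, SE 0.17, adjusted p = 0.41).

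Of 17 transcription factors, kinases and feedback genes of these pathways, 16 could be tested, and 1 rose while none fell. The one was Cebpd, a C/EBP factor induced in inflammation, at 14.03 ± 2.54 CPM in WT and 25.3 ± 3.87 CPM in db/db (log2 fold change 0.85, SE 0.21, adjusted p = 0.0059). Every db/db mouse was above every WT mouse, and Cebpd overlaps Spidr on the opposite strand, so its counts are uncertain. Tyk2, a Janus kinase of cytokine receptors, was the tested gene with the largest p, at 7.39 ± 2.42 and 7.35 ± 2.65 CPM (log2 fold change 0.02, SE 0.35, adjusted p = 0.975). The gene below the filter was Socs3, with 3, 3, 2 and 4 counts in WT and 19, 19, 4 and 9 in db/db. It passed as higher in the fit with every counted gene (adjusted p = 0.0384), on few counts.

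Receptors and partners of the 7 proteins were taken next. Of 17 such genes, 5 could be tested, and 3 rose and 1 fell. Cd163, the macrophage receptor that takes up haptoglobin bound to hemoglobin, rose with Hp, from 9.85 ± 2.11 to 28.9 ± 10.5 CPM (log2 fold change 1.56, SE 0.27, adjusted p = 0.000346), and the genotypes did not overlap. The scavenger receptor Cd36 rose from 403 ± 30.6 to 565 ± 79.6 CPM (log2 fold change 0.49, SE 0.13, adjusted p = 0.0108), and Lrp1, an endocytic receptor, had a log2 fold change of 0.49 (SE 0.17, adjusted p = 0.0368) with WT 3 inside the db/db range. Lrp1 did not pass when scaled by total counts (adjusted p = 0.0645) or without WT 1, WT 2, WT 4, db/db 1, db/db 2 or db/db 3 (0.0715 to 0.127), and Cd36 did not pass without WT 2 (0.0506). Scarb1, the high-density lipoprotein receptor that also binds serum amyloid A, fell from 42.8 ± 7.64 to 20.7 ± 2.98 CPM (log2 fold change -1.05, SE 0.19, adjusted p = 0.000418) with no overlap. Slc22a17, a proposed Lcn2 receptor, stood at 12.3 ± 3.45 and 11.8 ± 4.20 CPM (log2 fold change -0.06, SE 0.30, adjusted p = 0.916), and the other proposed Lcn2 receptor, Lrp2, held no count.

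Hp, Cp and Steap4 handle hemoglobin, iron and copper, and 16 of 18 listed genes of that handling could be tested. Of these, 5 rose and 2 fell. Besides Steap3 and Heph, the ferritin chains Fth1 and Ftl1 rose, by log2 fold changes of 0.46 (SE 0.14, adjusted p = 0.0178) and 0.60 (SE 0.17, adjusted p = 0.0143). Neither passed without WT 1 (adjusted p of 0.0778 and 0.0551), and Fth1 did not pass without db/db 3 (0.0528). The beta-globin transcript Hbb-bt, a sign of red cells in the tissue and nearly identical in sequence to Hbb-bs, went from 501 ± 216 to 881 ± 444 CPM (log2 fold change 0.81, SE 0.29, adjusted p = 0.0433) with overlapping genotypes and its highest value in db/db 4. It did not pass under DESeq2 (adjusted p = 0.163) or without WT 1, WT 3, WT 4, db/db 2 or db/db 4, and without db/db 4 its log2 fold change was 0.40 (adjusted p = 0.227). The other globins, Hbb-bs, Hba-a1 and Hba-a2, had log2 fold changes of 0.78 to 0.86 and adjusted p of 0.0537 to 0.079. Trf and the copper importer Slc31a1 were the ones that passed as lower, and Slc31a1 did not pass without WT 3, WT 4, db/db 1, db/db 2 or db/db 3 (adjusted p of 0.0603 to 0.111). The copper chaperone Atox1 stood at 75.98 ± 6.5 and 77.8 ± 14.8 CPM (log2 fold change 0.04, SE 0.15, adjusted p = 0.888).

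**Figure D4:**
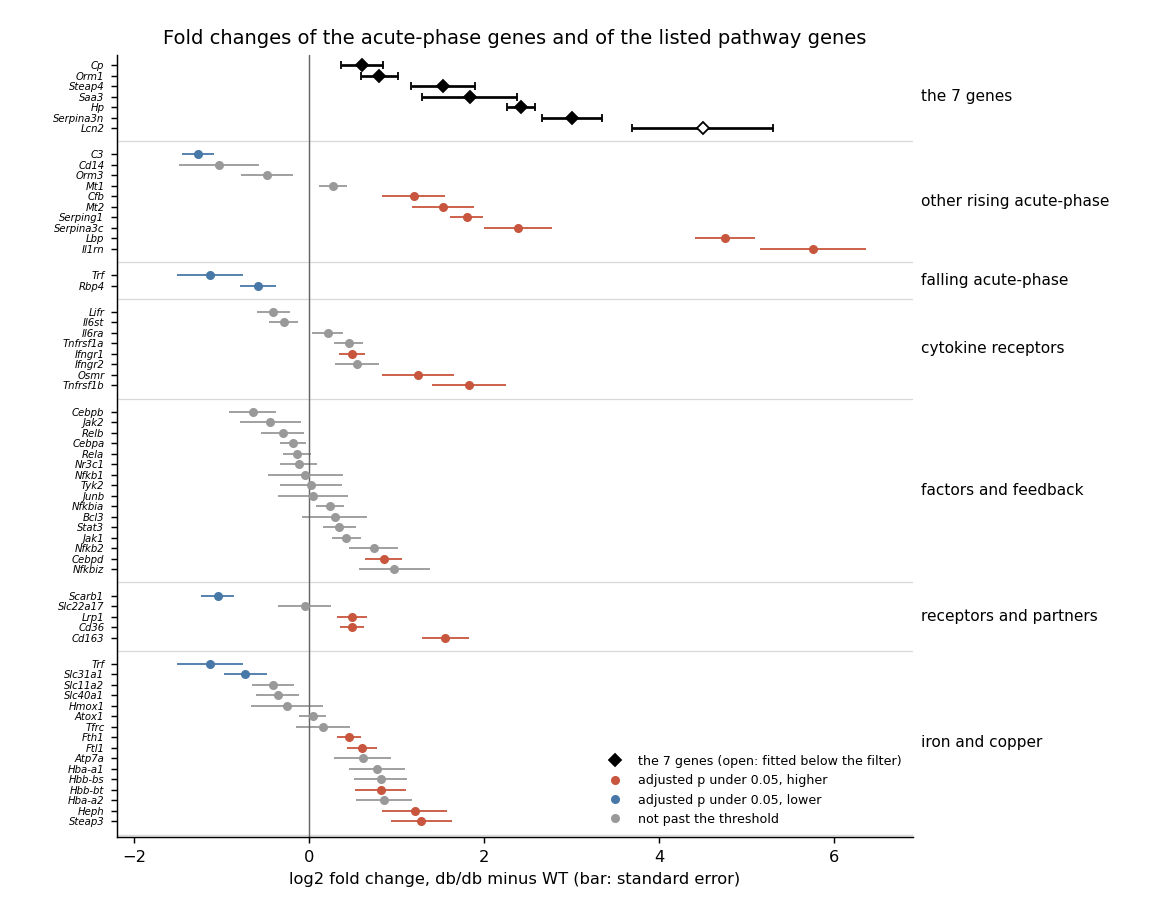
Log2 fold change, db/db minus WT (horizontal axis, bars give the standard error), of the 7 genes in black and of the tested genes of 6 pathway lists, in red or blue where the adjusted p was under 0.05 and in grey otherwise. The 6 genes that passed the filter run from 0.60 for Cp to 3.0 for Serpina3n. Lcn2 is the open point at 4.50, fitted with every counted gene, and Il1rn and Lbp stand at 5.76 and 4.75. The values of Lcn2 and Il1rn each rest on 2 WT counts in all.

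Markers of other cell types moved with genotype in the same libraries, and their part in the values of the 7 genes was not tested. Of 9 tested macrophage markers 8 rose and none fell, and the summed level of the list was 157 to 213 CPM in WT and 734 to 1293 CPM in db/db, highest in db/db 1. The lysozyme gene Lyz2 rose from 70.5 ± 7.18 to 489 ± 156 CPM (log2 fold change 2.79, SE 0.20, adjusted p = 3.02e-08) and Cd68 from 5.37 ± 1.48 to 28.6 ± 7.25 CPM (log2 fold change 2.41, SE 0.27, adjusted p = 5.37e-06). The complement genes C1qb and C1qc had log2 fold changes of 2.41 (SE 0.26, adjusted p = 2.45e-06) and 2.18 (SE 0.21, adjusted p = 8.37e-07). The other tested marker, the lipopolysaccharide co-receptor Cd14, stood at 8.52 ± 4.35 and 4.21 ± 1.57 CPM (log2 fold change -1.03, SE 0.45, adjusted p = 0.0997), and it passed as lower with every counted gene (0.0426) and without WT 2 (0.0159). All 6 fibroblast markers passed as higher, 5 of them without db/db 1, with sums of 487 to 621 CPM in WT and 1021 to 2102 CPM in db/db. These were Dpt with a log2 fold change of 2.45 (SE 0.21, adjusted p = 2.35e-07), the collagens Col3a1 with 2.06 (SE 0.23, adjusted p = 3.48e-06) and Col1a1 with 1.47 (SE 0.22, adjusted p = 8.72e-05), Pi16 with 1.95 (SE 0.40, adjusted p = 0.00148), Dcn with 0.89 (SE 0.17, adjusted p = 0.000782) and Pdgfra with 1.24 (SE 0.44, adjusted p = 0.0457). Pdgfra did not pass when scaled by total counts (0.0608) or without WT 1, WT 4, db/db 1, db/db 2 or db/db 3 (0.0504 to 0.136). All 7 skeletal muscle markers passed as higher as well, with sums of 324 to 1128 CPM in WT and 1586 to 7995 CPM in db/db, and db/db 1, the highest db/db mouse for 6 of the 7 genes, was the highest here too. The largest muscle changes were those of the actin Acta1, with a log2 fold change of 3.05 (SE 0.45, adjusted p = 6.79e-05), the myosin light chain Mylpf with 2.70 (SE 0.39, adjusted p = 6.15e-05), Pvalb with 2.61 (SE 0.48, adjusted p = 0.000495) and the creatine kinase Ckm with 2.56 (SE 0.43, adjusted p = 0.000246). Of the muscle markers, Myh4 did not pass under DESeq2 (adjusted p = 0.14), limma-voom (0.0712) or the replicate block (0.119), nor without WT 1, WT 2, WT 3 or db/db 1, and without db/db 1 its log2 fold change went from 1.32 (SE 0.44, adjusted p = 0.0313) to 0.55 (0.212). Without db/db 1 the log2 fold changes were, as a description, 2.74 for Serpina3n, 2.33 for Hp, 1.77 for Saa3, 1.70 for Steap4, 0.59 for Orm1 and 0.47 for Cp.

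**Figure D5:**
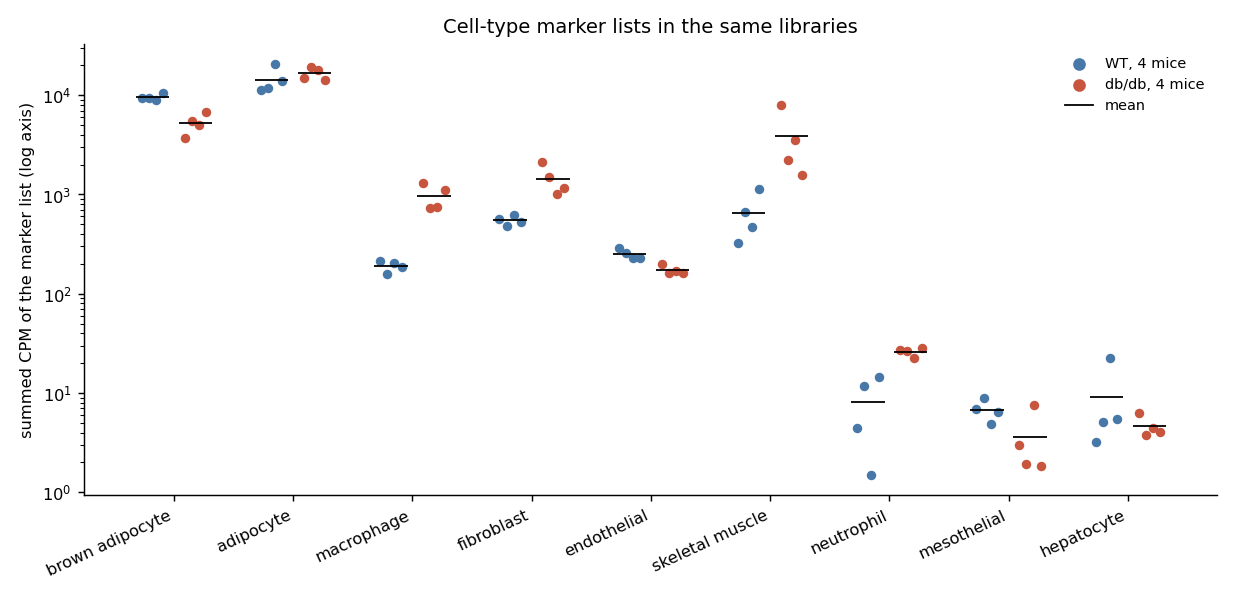
Summed level of each cell-type marker list in CPM (vertical log axis), with 1 point for each of 4 WT and 4 db/db mice and a line at the mean. The macrophage, fibroblast and skeletal muscle lists lie higher in all db/db mice, the brown adipocyte list lies lower, and the neutrophil, mesothelial and hepatocyte lists stay under 30 CPM in all 8 libraries.

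Liver and neutrophils are known sources of several of these transcripts, and the levels of their markers are given here, whose part in the values of the 7 genes was not tested. Of 10 hepatocyte markers, Ttr, Fga, Fgb, Serpina1a and Cyp3a11 held no count and the other 5 were below the filter, so none was tested, and the list summed to 3.24 to 22.5 CPM in WT and 3.82 to 6.32 CPM in db/db. Apoc3, an apolipoprotein gene, held 8, 7, 50 and 9 counts in WT and 8, 3, 0 and 2 in db/db. Albumin (Alb) went the other way, with 0, 0, 4 and 1 counts in WT and 12, 7, 5 and 3 in db/db. Of 10 neutrophil markers 8 were below the filter, and the granule genes Mpo, Ltf, Camp and Ngp held between 0 and 3 counts in each library. The calcium-binding gene S100a8 rose from 2.41 ± 2.14 to 15.7 ± 2.81 CPM (log2 fold change 2.72, SE 0.45, adjusted p = 0.000201), while its partner S100a9 stood at 4.10 ± 3.48 and 8.42 ± 1.11 CPM (log2 fold change 1.06, SE 0.54, adjusted p = 0.162). The list summed to 1.5 to 14.4 CPM in WT and 22.6 to 28.6 CPM in db/db, so that the genotypes did not overlap.

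Fat cell markers were split. All 5 tested brown adipocyte markers fell, though 2 passed without WT 4, among them Ucp1 by 0.65 (SE 0.19, adjusted p = 0.0176) and Cidea by 1.24 (SE 0.17, adjusted p = 4.19e-05) on the log2 scale. Cox8b and Cox7a1, subunits of cytochrome oxidase, fell by 0.63 (SE 0.16, adjusted p = 0.00585) and 0.49 (SE 0.15, adjusted p = 0.022), and the coactivator gene Ppargc1a fell by 0.79 (SE 0.23, adjusted p = 0.0158). Ucp1 did not pass without WT 4 or db/db 3 (adjusted p of 0.0612 to 0.0707), Cox7a1 without WT 2 or WT 4 (0.0579 to 0.0614) or Ppargc1a without WT 4 (0.0732). Of 6 general adipocyte markers, 2 passed as higher and 1 as lower, and Fabp4, one of the higher ones, did not pass without WT 1, WT 2, WT 4, db/db 2 or db/db 3 (adjusted p of 0.0705 to 0.122). Adiponectin (Adipoq) stood at 1534 ± 240 and 1909 ± 185 CPM (log2 fold change 0.32, SE 0.14, adjusted p = 0.112). The lipase gene Lipe had a log2 fold change of 0.04 (SE 0.13, adjusted p = 0.868), and Pparg, the main factor of fat cell formation, one of -0.39 (SE 0.29, adjusted p = 0.341), which passed as lower with every counted gene (0.0468) and without db/db 2 (0.0218). Fabp4 had a log2 fold change of 0.65 (SE 0.21, adjusted p = 0.0309). The lipid droplet coat gene Plin1 had a log2 fold change of 0.79 (SE 0.15, adjusted p = 0.000685), and Cfd, the complement factor adipsin, went from 3497 ± 1513 to 552 ± 234 CPM (log2 fold change -2.66, SE 0.28, adjusted p = 2.59e-06). Of 4 tested endothelial markers 2 passed as lower and none as higher. The receptor genes Kdr and Tek had log2 fold changes of -0.74 (SE 0.15, adjusted p = 0.00127) and -1.20 (SE 0.37, adjusted p = 0.021), and Tek did not pass without WT 4 (0.125) or db/db 2 (0.0545). Pecam1 and Cdh5 had -0.31 (SE 0.17, adjusted p = 0.202) and -0.39 (SE 0.21, adjusted p = 0.194). The 1 tested mesothelial marker, Lrrn4, had a log2 fold change of -2.68 (SE 0.49, adjusted p = 0.000524), while Upk3b and Wt1 held no count.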

How the data were processed

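Total RNA of BAT from 4 WT and 4 db/db mice was sequenced by a commercial digital mRNA-seq service. The study's methods name bbduk, STAR on mm10 and HTSeq-count, while the labels' processing notes name Trimmomatic, HISAT2 and DESeq2 on GRCm38, so the aligner is uncertain. The handling of molecular identifiers and the strand setting of the counting are not given in the sources used here. The authors deposited raw counts per Ensembl gene, which were used for all tests, and normalized values on a log2 scale, which equal log2 of 1 plus the raw count multiplied by 1 factor per sample, and served as an alternative for the 7 genes. Of 31053 genes, 30934 were matched to a symbol in GENCODE M21.

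Groups and replicate numbers came from the sample titles, and replicates are separate mice by the study's account. Genes were filtered with filterByExpr (minimum count 10, minimum total 15, 9264 genes kept) and scaled by TMM, and genotypes were compared with edgeR 4.0.16 (quasi-likelihood F test, genotype as the only term, Benjamini-Hochberg adjustment over all genes kept, threshold 0.05) in R 4.3.3. Standard errors were derived from the F statistic. The edgeR comparison was checked on simulated counts. Of 188 changed genes that were tested, 182 were recovered, with 9 false calls. With no gene changed, 2 were called. With total counts of 2374079 to 3240074 per library, values near 3 counts have little precision, and intervals cover counting error only. Folds against a genotype with 1 to 3 counts in all are given as ratios with exact 95% intervals.

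The members, gene lists and rules were chosen with earlier results of these data known. Genes named were the 7 members, in each list every tested gene where 6 or fewer were tested and otherwise the 4 largest changes past the threshold and the gene with the largest adjusted p, markers without counts, and the 3 genes most like each member among those with at least 20 CPM. C3, Slc31a1, Fth1, Ftl1, Orm2, Hbb-bs, Hba-a1, Hba-a2, Itih4, Apoc3, Alb and other genes below the filter were named after their values were seen. Alternatives were DESeq2 1.42.0, limma-voom (limma 3.58.1), other scalings and filters, the replicate block and leaving out each mouse.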

Additional observations from a re-analysis of the deposited data

Results flagged for a closer look

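Over the 7 genes and the listed genes, 126 groups of 4 mice were examined for a mouse far from the other mice of its genotype (a gap above Dixon's 95% critical value), and 6 were found, where chance alone would give about 6.3. Of the 7 genes, Lcn2 was found, at 0.849 CPM in WT 4, which is 2 counts against none in the other WT mice. Serping1 stood at 281 CPM in db/db 1, with the other db/db mice between 146 and 168 CPM. Lrp1 stood at 118 CPM in WT 3 against 74.3 to 80.2 CPM, and at 94.1 CPM in db/db 4 against 131 to 135 CPM. Cfd stood at 899 CPM in db/db 3 against 387 to 467 CPM. Orm3 stood at 10.5 CPM in WT 1 against 10.1 to 10.2 CPM, a group whose whole range is small.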

How the results depend on the processing

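The log2 fold change stayed positive for all 7 genes under every alternative run: 2.31 to 2.51 for Hp, 1.43 to 2.38 for Saa3, 0.59 to 0.97 for Orm1, 2.74 to 3.58 for Serpina3n, 0.47 to 0.81 for Cp and 1.12 to 1.85 for Steap4. Lcn2, fitted with every gene that had a count (a choice made after seeing its counts), gave 3.34 from the deposited log2 values and 3.91 to 6.96 with 1 mouse left out, highest without WT 4. With Spearman's rho the 3 most similar genes shared 1 with those by Pearson's r for 6 members and 0 for Cp. Scalings moved the median of all genes by under 0.1.

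Counts within the lists, small ones, moved more. Under DESeq2, falling acute-phase genes called lower were 1 and iron and copper genes lower 1. Under limma-voom these were 1 and 1, and neutrophil markers higher were 2. Falling genes lower were 1 by total counts, and without mitochondrially encoded genes 1, where factors higher were 2. With every counted gene, rising acute-phase genes lower were 3, factors higher 2 and lower 1, receptors and partners higher 6, iron and copper genes higher 8, and adipocyte markers lower 2, macrophage 1 and hepatocyte 1. With at least 10 counts in every sample, rising genes higher were 2, falling lower 1, relatives higher 0, factors higher 3, neutrophil markers higher 0 and mesothelial lower 0. Same-numbered mice did not deviate together (r of -0.076 to 0.049). These values show no shared deviation by number, and they cannot exclude that mice were handled in pairs. With the replicate block, falling genes lower were 1, factors higher 2 and lower 1, and iron and copper genes higher 8 and lower 1. The cause was not tested.

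With 1 mouse left out, the ranges were as follows. Rising genes lower were 1 to 2, falling genes lower 0 to 2, cytokine receptors higher 1 to 4 and lower 0 to 1, factors higher 1 to 3 and lower 0 to 1, and receptors and partners higher 2 to 5. Iron and copper genes higher were 2 to 8 and lower 0 to 2, brown adipocyte markers lower 2 to 5, adipocyte markers higher 1 to 2 and lower 1 to 2, macrophage markers lower 0 to 1 and endothelial markers lower 1 to 2. Of 433 comparisons of 56 named genes under the other alternatives, 13 fell below the threshold and 3 rose past it. Of 448 with a mouse left out, 54 and 2 did. Saa3 and Lcn2 rest on few counts, and the cytokines and liver genes were not detectable or below the filter at this depth.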
